A study of Mus musculus with 2 samples.

Results

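The regions described here lie at the telomere-side ends of the mouse autosomes. They are the listed regions of chromosomes 1 to 19 whose end is at most 5000000 bp below the highest end listed for the same chromosome, whether or not the authors gave them an adjusted value. The rule used position alone, and it selected 1100 of the 23339 autosomal regions (4.71%) and of 23946 regions in the whole table. The distance is counted from the outermost listed region and not from the telomere itself, and the telomeric repeats were not analysed here.

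Mouse autosomes carry their centromere at one end, so the end with the highest coordinates is the one that leads to the telomere of the long arm. Zscan4 proteins, zinc-finger proteins of the early cleavage embryo, appear in brief bursts in embryonic stem cells and are known for their role in telomere lengthening and genome stability. The chromatin next to telomeres is often rich in methylated DNA and repeats, and DNA methylation there is known to restrain recombination between telomeres. These points are background and not results of these data.

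The measurements are counts from methylated DNA immunoprecipitation sequencing (MeDIP-seq), in which an antibody against 5-methylcytosine (5mC) enriches methylated fragments. Both libraries come from feeder-free tet-Zscan4c ES cells of the MC1 line (129S6/SvEvTac), which carry a Flag-tagged Zscan4 transgene that doxycycline (dox) switches off. The repressed library (dox+) was made from cells kept in 1.5 µg/ml dox and the induced library (dox-) from cells in medium with 0 µg/ml. The labels give 1 library per condition, no replicate and no count of clones, so every value compares these 2 libraries, and effects of dox and of Zscan4 cannot be told apart. The libraries held 51169 (induced) and 70219 (repressed) counts over all listed regions, a raw induced-to-repressed ratio of 0.729, and a ratio in a group of regions has meaning only against the ratio of other regions. The intervals given are exact 95% intervals for counting error alone, and reads copied by PCR would make them too narrow.

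The distal ends were more densely listed than the pooled rest of the autosomes and held more MeDIP counts per kb. The centromere-side ends and the step just outside the limit also did. Neither library is an unenriched input, so counts per kb are not corrected for coverage and are no direct measure of methylation. There were 11.6 regions per Mb in the distal 5 Mb against 9.61 per Mb in the other 22239 autosomal regions. The median distal region held 2 induced and 2 repressed counts, and the median of the other regions was 1 and 2. Per kb of listed sequence, both libraries together held 4.65 counts in the distal regions and 3.74 in the others. The first 5 Mb on the centromere side had 11.8 regions per Mb and 4.79 counts per kb, and the step between 5 and 6 Mb from the distal end had 12.6 and 4.47. Lengths were alike in the distal and the other autosomal regions, with medians of 1102 and 1112 bp, and 44.8% and 44.3% measured exactly 1000 bp. No induced count was seen in 283 distal regions (25.7%, exact binomial interval 23.2 to 28.4) against 29.8% of the other regions (29.1 to 30.4). No repressed count was seen in 202 (18.4%, 16.1 to 20.8) against 20.3% (19.7 to 20.8), and 92 distal regions held no count at all. The share of empty regions was thus lower at the distal ends than in the pooled rest, with intervals apart in the induced library and overlapping in the repressed library. Whether the libraries differed in this was not tested. The step between 5 and 6 Mb had lower shares still, 23.4% (induced) and 16.7% (repressed), and the centromere side had higher ones, 32.5% and 24.4%.

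The most heavily covered distal regions stood at the very tips of a few chromosomes. Of the 1100 regions, 7 had a summed count of 50 or more (0.636%, 0.256 to 1.31), against 46 of the other autosomal regions (0.207%, 0.152 to 0.276). Such regions were not particular to the distal ends. In the first 5 Mb on the centromere side they were 10 of 1124 (0.890%, 0.427 to 1.63), with 33.7% of the counts there against 11.0% at the distal ends. Between 5 and 6 Mb from the distal end they were 0 of 239. Of the 7 distal regions, 6 lay within 30 kb of the outermost listed end, on chromosomes 1, 2, 9 and 19. They held 697 of the 6779 distal counts (10.3%) in 6 of 1100 regions. The other 43 regions of the last 100 kb held 208 counts, at most 22 in any one, and 3.76 counts per kb. Regions below 50 counts held 3.57 counts per kb in the rest of the autosomes and 4.16 in the whole distal 5 Mb. High signal at the tip was therefore a property of single loci on 4 chromosomes in these libraries and not of the outermost 100 kb of all 19.

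**Figure D1:**
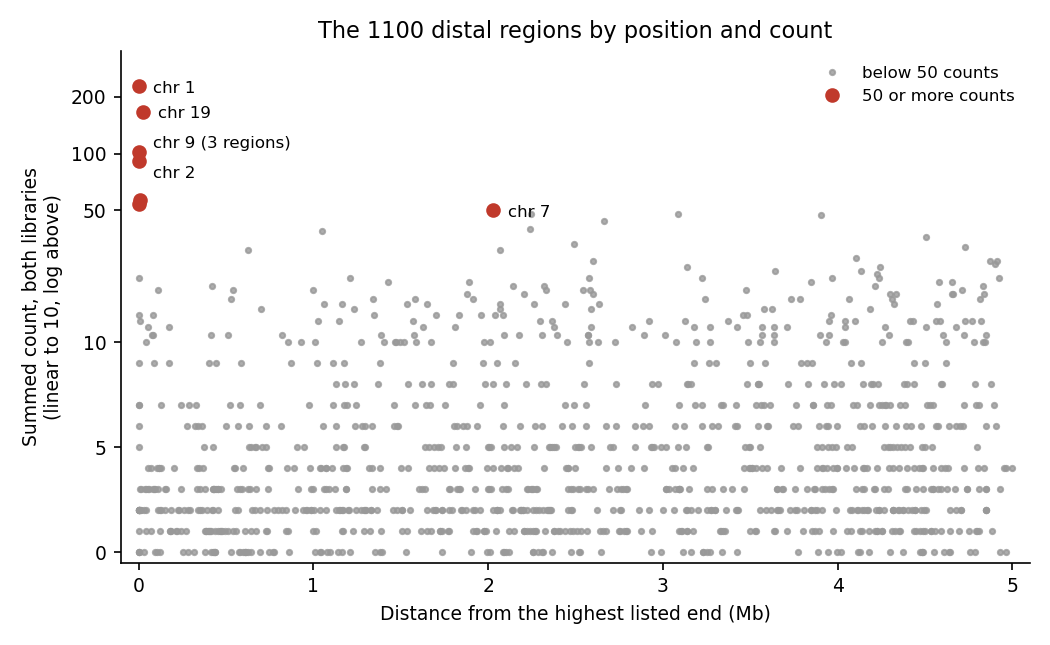
Each point is 1 of the 1100 distal regions. The x axis is the distance in Mb from the highest listed end of its chromosome and the y axis the summed count of both libraries (linear up to 10, logarithmic above). The red points are the 7 regions of 50 or more counts, of which 6 sit at the left edge, on chromosomes 1, 2, 9 and 19, and 1 sits on chromosome 7 about 2 Mb inside.

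The outermost listed region itself varied widely between chromosomes. The 19 outermost regions held 229 induced and 272 repressed counts, and 420 of these counts came from 3 of them, those of chromosomes 1, 2 and 9. The outermost region of chromosome 19, R11708, held 16 induced and 6 repressed counts. The remaining 15 held at most 14 counts each and 27 induced and 32 repressed counts in all. The median summed count was 5, and the outermost regions of chromosomes 7, 12 and 13 held 0 counts in both libraries, which allows a level of up to 3 counts. For most chromosomes the tip thus says little by itself at this depth.

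Between the libraries, the distal regions as a group did not change relative to the other autosomal regions beyond counting error. The distal 5 Mb held 2910 induced and 3869 repressed counts, a raw ratio of 0.752 (0.717 to 0.789). The other autosomal regions held 46573 and 64085 counts, a raw ratio of 0.727 (0.718 to 0.735). The distal ratio was 1.03 times that of the other regions (exact interval 0.985 to 1.09, Fisher's exact test, two-sided, p = 0.175). This relative ratio does not depend on how the libraries are scaled, and the test is about the reads of these libraries, not about the conditions. With the counts scaled to equal library totals, the distal ratio was 1.04 (0.987 to 1.09). Leaving out the single distal region without an adjusted value, R01408 on chromosome 1, and the 7 such regions elsewhere on the autosomes gave a relative ratio of 1.03 (0.974 to 1.08). Without all regions of 50 or more counts it was 1.03 (0.980 to 1.09). Against the 1124 regions in the first 5 Mb on the centromere side, which held 3076 and 3998 counts, the distal ratio was 0.978 times as high (0.914 to 1.05, Fisher's exact p = 0.515). The interval of the pooled comparison with the other regions runs from a relative loss of 1.54% to a relative rise of 8.78% at the distal ends.

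The pooled value mixes regions of very different coverage, so distal and other regions were also set side by side at similar summed counts. At 3 to 9 counts, which took in 501 distal regions, the raw ratio was 0.714 at the distal ends and 0.719 elsewhere, a relative ratio of 0.993 (0.916 to 1.08). At 10 to 19 counts, with 147 distal regions, the relative ratio was 0.989 (0.899 to 1.09). At 1 or 2 counts it was 1.17 (0.965 to 1.40), and at 20 to 49 counts, with 38 distal regions, it was 1.14 (0.999 to 1.29). The 7 regions of 50 or more counts gave 0.983 (0.839 to 1.15). All 5 intervals held 1.

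Coverage of the distal ends was uneven across chromosomes. The number of regions ranged from 4 on chromosome 18 to 135 on chromosome 15, with a median of 57. Chromosomes 15, 11, 10 and 4 together held 451 of the 1100 regions (41.0%), and the last 5 Mb of 11 chromosomes were denser in regions than the rest of the same chromosome. On chromosome 15 the distal density was 27.0 regions per Mb against 8.66 in the rest, and on chromosome 17 it was 4.60 against 12.8. Raw distal counts were highest on chromosome 11, with 427 induced and 528 repressed, and on chromosome 15, with 321 and 442. They were lowest on chromosome 18, with 6 and 4, chromosome 13, with 6 and 15, and chromosome 3, with 12 and 22. Chromosomes 3, 12, 13, 17 and 18 each held under 100 distal counts in all, too few to read a ratio from.

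**Figure D2:**
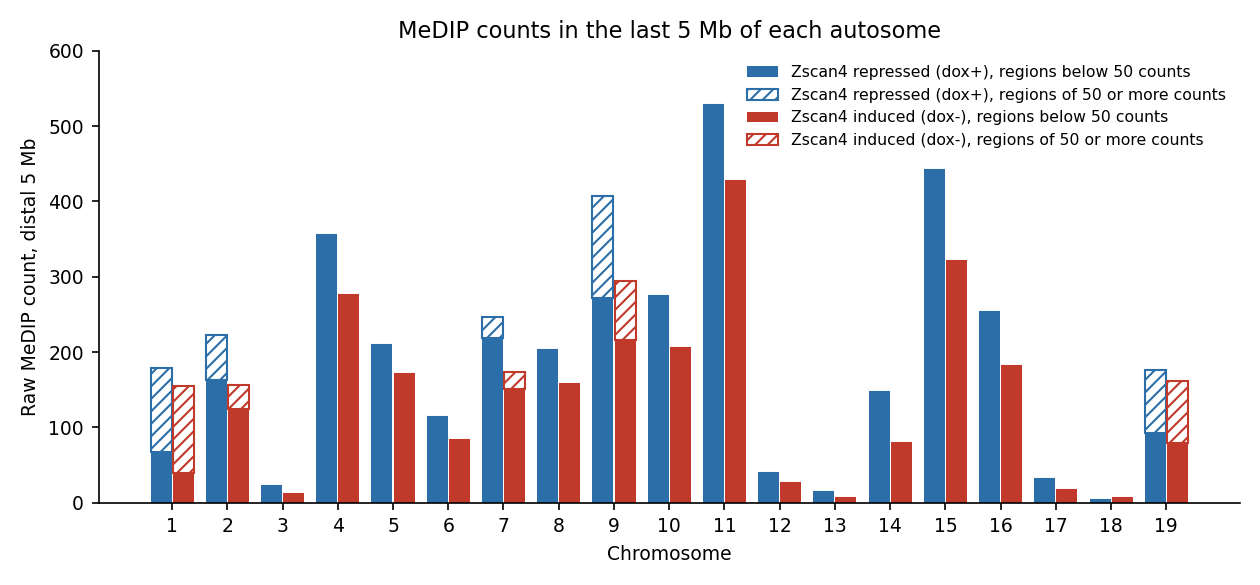
Bars give the raw MeDIP counts in the last 5 Mb of each autosome, blue for the repressed (dox+) and red for the induced (dox-) library, with regions of 50 or more counts hatched on top. Chromosome 11 is highest (528 and 427 counts), and on chromosome 1 a single hatched region of 111 and 116 counts makes up most of the bar.

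On each chromosome, the distal ratio was compared with that of the rest of the same chromosome. The distal ratio was the higher on 10 chromosomes and the lower on 9, all 19 intervals held 1, and no comparison passed Fisher's exact test after Benjamini-Hochberg adjustment over the 19 (smallest adjusted p = 0.571). The 14 chromosomes with at least 100 distal counts had raw ratios from 0.537 to 0.920. Tiling the autosomes into 5 Mb windows from the distal end gave 329 other windows with at least 100 counts. Their raw ratios ran from 0.471 to 1.10, with a median of 0.72 and quartiles of 0.661 and 0.789. The 14 distal windows had a median of 0.74 and quartiles of 0.717 and 0.801, each somewhat higher. They lay inside the range of the others, which shows little with so many windows, and the difference was not tested.

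Among the 14 chromosomes with at least 100 distal counts, the extremes were chromosomes 19 and 14. The last 5 Mb of chromosome 19 held 162 induced and 176 repressed counts, a raw ratio of 0.920 against 0.731 in the rest of that chromosome. The relative ratio was 1.26 (1.00 to 1.59, Fisher's exact p = 0.0441, adjusted p = 0.571), and 49.1% of these counts came from the single region R11707. Without that region, 79 induced and 93 repressed counts remained, a raw ratio of 0.849. The last 5 Mb of chromosome 14 held 79 and 147 counts in 54 regions, none of them with 50 counts, a raw ratio of 0.537 against 0.710 in the rest. The relative ratio was 0.757 (0.564 to 1.01, Fisher's exact p = 0.0601, adjusted p = 0.571). Its lower value came mainly from the step between 3 and 4 Mb from the end, where 18 regions held 35 induced and 74 repressed counts.

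Chromosome 1 turned on a single region. With all its 33 distal regions the counts were 155 and 179, a relative ratio of 1.18 (0.943 to 1.49). The outermost region R01408 held 116 and 111 of them, 68.0% of the distal counts of this chromosome. Without it, 39 induced and 68 repressed counts remained, and the relative ratio was 0.784 (0.513 to 1.18). The direction for chromosome 1 thus reversed with 1 region, and both intervals held 1.

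**Figure D3:**
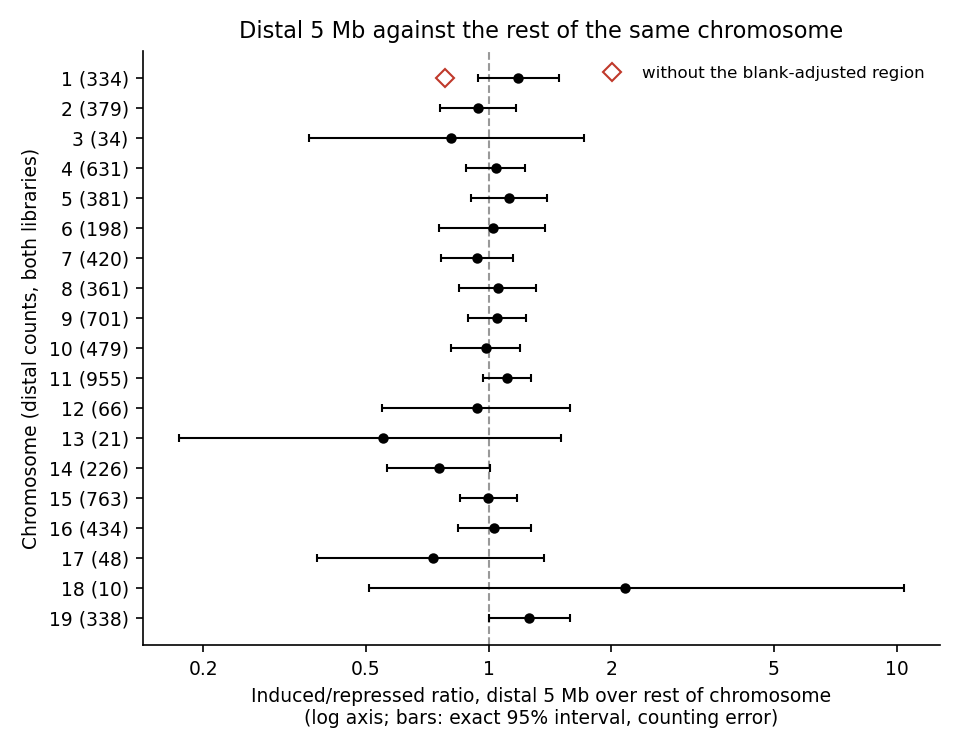
Points give the induced-to-repressed ratio of the distal 5 Mb divided by that of the rest of the same chromosome, on a logarithmic axis, with exact 95% intervals for counting error and the distal counts of both libraries in parentheses. The points run from 0.551 on chromosome 13 (21 counts) to 2.16 on chromosome 18 (10 counts), and the open diamond shows chromosome 1 at 0.784 without its region of blank adjusted value.

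In 1 Mb steps from the end, the pooled ratio relative to the autosomal regions beyond 5 Mb was 1.06, 1.06, 1.12, 0.941 and 1.01 from the tip inward. The step from 3 to 4 Mb lay about as far below the rest as the first 2 lay above it. Steps outside the limit reached values like those of the first 2, 1.07 from 10 to 11 Mb and 1.06 from 14 to 15 Mb. The 1.12 of the step from 2 to 3 Mb was the highest of all steps out to 20 Mb. The first Mb (223 regions) held 666 induced and 866 repressed counts, a raw ratio of 0.769 (0.694 to 0.852). The second (204 regions) held 480 and 622, a ratio of 0.772 (0.684 to 0.871). The step from 2 to 3 Mb (214 regions) held 587 and 722, a ratio of 0.813 (0.728 to 0.908), with an interval of 1.00 to 1.25 for the relative ratio. The step from 3 to 4 Mb (213 regions) held 514 and 752, the lowest ratio at 0.684 (0.610 to 0.766). The step from 4 to 5 Mb (246 regions) held 663 and 907, a ratio of 0.731 (0.660 to 0.809). Just outside the limit, the 239 regions between 5 and 6 Mb held 604 and 843 counts, a ratio of 0.717 (0.644 to 0.796). Neighbouring steps had overlapping intervals, but overlap does not show that they were alike, and no step was tested against the next. Of these 6 steps only that from 2 to 3 Mb had an interval above the ratio of the rest, and only narrowly.

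The ratio of the first step moved with the high-count loci in it. Without R01408 alone, 550 induced and 755 repressed counts remained, a ratio of 0.728 (0.651 to 0.814), the level of the rest of the autosomes. Without the locus of chromosome 19 the ratio was 0.745, without that of chromosome 2 it was 0.788 and without that of chromosome 9 it was 0.804. All 6 regions of 50 or more counts made up 45.5% of the counts there, and leaving them all out changed the ratio from 0.769 to 0.751 and the level from 5.08 to 2.84 counts per kb. The other steps held between 4.20 and 4.70 counts per kb, so without its 6 high-count regions the outermost Mb had the lowest signal of the 5 steps. The step from 2 to 3 Mb stayed at 0.812 without its single high-count region.

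A narrower limit gave a different reading of the pooled comparison. The 641 regions within 3 Mb held 1733 induced and 2210 repressed counts, and their ratio was 1.08 times that of the other autosomal regions (1.01 to 1.15, Fisher's exact p = 0.0190). That difference passed the threshold at 3 Mb and not at 1 Mb (1.06, 0.953 to 1.17), 5 Mb or 10 Mb (0.996, 0.960 to 1.03). At 3 Mb it ended without the regions of blank adjusted value (1.06, 0.994 to 1.14, Fisher's exact p = 0.0707), which at the distal ends is R01408 alone. It also ended without chromosome 19 (1.07, 0.996 to 1.14, p = 0.0647 by the same exact test) or without chromosome 1, and stayed past the threshold when any of the other 17 chromosomes was left out. Without all regions of 50 or more counts, R01408 among them, it stayed past the threshold too (1.08, 1.01 to 1.16, Fisher's exact p = 0.0305). These p-values are not adjusted for the 4 distances tried.

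**Figure D4:**
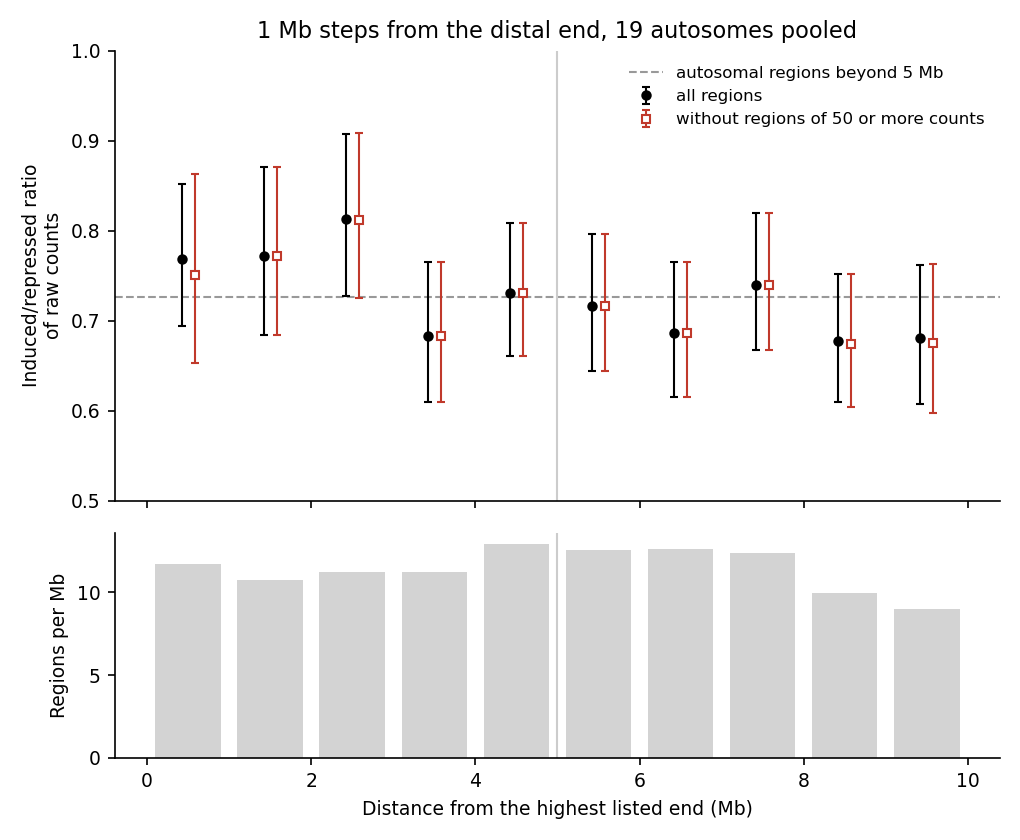
The upper panel plots the raw induced-to-repressed ratio with exact 95% intervals for each 1 Mb step from the highest listed end, over all 19 autosomes, for all regions (black) and without regions of 50 or more counts (red). The dashed line is the ratio of 0.727 in the autosomal regions beyond 5 Mb, and the lower panel gives the number of listed regions per Mb, between 10.7 and 12.9 in the 5 distal steps.

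Single chromosomes scattered around the pooled steps. Of the 95 steps of 1 Mb on the 19 chromosomes, 6 held no listed region and 60 held at least 20 counts. The raw ratios of these 60 ran from 0.333 to 1.14 with a median of 0.740, and 32 lay above and 28 below the ratio of the other autosomal regions. Only 3 intervals left that ratio out. They belonged to the first Mb of chromosome 1 (119 induced and 114 repressed counts), the first Mb of chromosome 19 (114 and 112) and the step from 3 to 4 Mb on chromosome 14 (35 and 74). The former 2 each contain 1 of the high-count regions.

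The high-count regions formed 5 loci when joined across gaps of at most 100 kb, and those at the tips fell on both sides of the autosomal ratio. On chromosome 1, R01408 (chr1:197067420-197068420, mm9 as in the table) held 116 induced and 111 repressed counts, 1.44 times the ratio of the other autosomal regions (1.10 to 1.88). On chromosome 19, R11707 (chr19:61275161-61276161), 26.8 kb from the outermost end, held 83 and 83 counts, 1.38 times that ratio (1.00 to 1.89). On chromosome 2, R13471 (chr2:181652891-181653891) held 31 and 60 counts, 0.711 times that ratio (0.445 to 1.11). The locus on chromosome 9 joined R23337, R23338 and R23339 across 11.9 kb (chr9:123833093-123844938). Its regions held 18 and 39, 21 and 33, and 39 and 63 counts, all 3 below the autosomal ratio, and in sum 78 and 135, 0.795 times that ratio (0.594 to 1.06).

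The induced share of the counts was thus larger at the tips of chromosomes 1 and 19 than at those of chromosomes 2 and 9. The ratio at the chromosome 1 locus was 2.02 times that at the chromosome 2 locus (1.19 to 3.48) and 1.81 times that at the chromosome 9 locus (1.21 to 2.70). The chromosome 19 locus was 1.93 (1.10 to 3.42) and 1.73 times (1.12 to 2.67) as high as the same pair. Chromosomes 1 and 19 did not differ beyond counting error (1.04, 0.686 to 1.59), nor did chromosomes 2 and 9 (0.895, 0.514 to 1.54). These loci were paired after their counts had been seen, so the values describe them and carry no test. Summed over the 4 tip loci, 308 induced and 389 repressed counts gave 1.09 times the autosomal ratio (0.935 to 1.27). The loci of chromosomes 1 and 19 lay above that ratio. Those of chromosomes 2 and 9 lay below it, with intervals that held 1.

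The other distal regions around these loci held fewer counts each. Within 1 Mb of R01408, 3 other regions held 3 induced and 3 repressed counts. Within 1 Mb of the other tip loci, the remaining regions held 32 and 29 counts (17 regions, chromosome 19), 43 and 43 (18 regions, chromosome 2) and 27 and 29 (11 regions, chromosome 9). On chromosome 2 the locus had a raw ratio of 0.517 (0.324 to 0.810) and its neighbours 1.00 (0.640 to 1.56), and on chromosome 9 the values were 0.578 (0.431 to 0.769) and 0.931 (0.530 to 1.63). The ratio at the locus was 0.519 times that of its neighbours on chromosome 2 (0.269 to 0.989), an interval that leaves out 1, and 0.622 times on chromosome 9 (0.329 to 1.18). On chromosomes 1 and 19 it was 1.05 (0.137 to 7.97) and 0.907 times (0.482 to 1.70) that of the neighbours. The loci were chosen by their counts, so these values describe them and carry no test.

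The remaining high-count region, R20477 on chromosome 7 (chr7:150481511-150483241), lay 2.03 Mb inside the outermost end. It held 23 induced and 27 repressed counts, a raw ratio of 0.852 (0.467 to 1.54). The 24 other regions within 1 Mb held 48 and 65 counts, a ratio of 0.739 (0.498 to 1.09), close to that of all other autosomal regions. Distal chromosome 7 is known for a large cluster of imprinted genes, whose control elements are methylated on 1 parental allele. No mm9 gene annotation was used here, so whether R20477 lies at such an element was not tested.

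**Figure D5:**
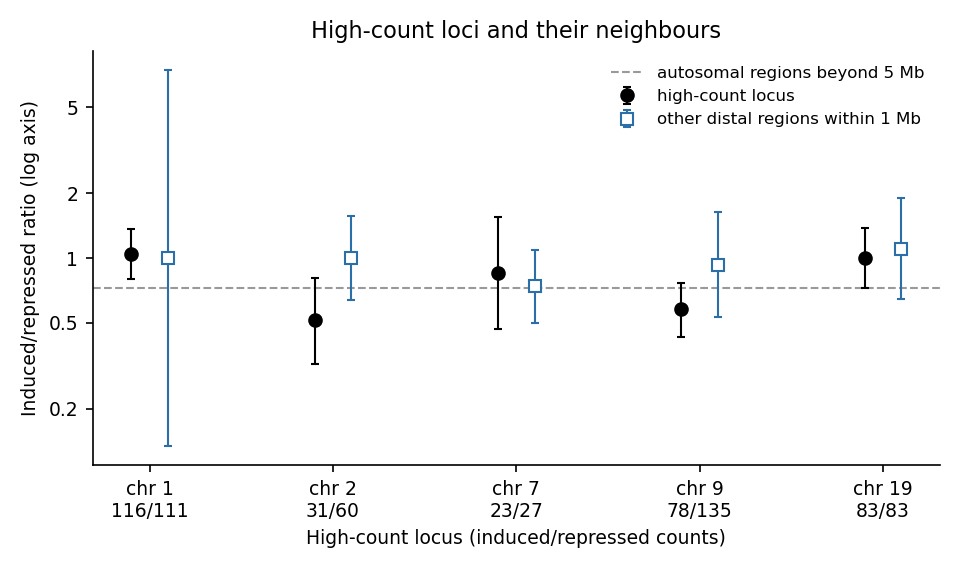
Black points give the raw induced-to-repressed ratio of each of the 5 high-count loci and blue squares that of the other distal regions within 1 Mb, on a logarithmic axis with exact 95% intervals for counting error. The loci on chromosomes 1 and 19 lie above the dashed line (0.727, autosomal regions beyond 5 Mb), and those on chromosomes 2 and 9 below it.

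Regions with a summed count of 20 or more were more frequent at the distal ends than in the pooled rest of the autosomes, while the intervals overlapped those of the 2 other stretches given here. There were 45 of them (4.09%, 3.00 to 5.44), on 14 chromosomes, against 577 of the other autosomal regions (2.59%, 2.39 to 2.81). Their share was 5.02% (2.62 to 8.61) between 5 and 6 Mb from the end and 3.20% (2.25 to 4.41) in the first 5 Mb on the centromere side. They held 822 induced and 969 repressed counts, a raw ratio of 0.848 (0.772 to 0.932), and the 577 others held 8434 and 10682, a ratio of 0.790 (0.767 to 0.813). Of the 45, 31 (68.9%, 53.4 to 81.8) had a ratio above that of the other autosomal regions as a whole, against 328 of 577 (56.8%, 52.7 to 60.9) elsewhere, and these intervals overlapped. Well covered regions thus leaned toward the induced library at the distal ends and elsewhere alike.

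Among these well covered regions, those with the highest relative signal in the induced library lay on chromosomes 4, 8, 9, 11, 16 and 19. R11708, the outermost region of chromosome 19 (chr19:61301941-61302941), held 16 induced and 6 repressed counts, a log2 ratio of scaled counts of 1.70 with a pseudocount of 1. Its neighbour R11707 lies 25.8 kb further in, at a log2 ratio of 0.46. R04322 on chromosome 11 (chr11:116952083-116954116) held 18 and 9 counts, a log2 ratio of 1.35. R16214 on chromosome 4 (chr4:153469868-153470868) and R22035 on chromosome 8 (chr8:126807297-126809262) each held 12 and 8 counts. R16211 on chromosome 4 (chr4:153366933-153368134), 102 kb inside R16214, held 27 and 21 counts, and R09086 on chromosome 16 (chr16:94456939-94458157) held 12 and 9. The 4 remaining ones, R04349, R04371 and R04329 on chromosome 11 and R23313 on chromosome 9, held between 10 and 21 repressed counts, with log2 ratios from 0.55 to 0.62. R22037 on chromosome 8, with 11 and 10 counts, had the same ratio as R04329. Apart from R01408 and R11707, only R11708 and R04322 had an interval of their own above the autosomal ratio (raw ratios of 2.67, 0.991 to 8.32, and 2.00, 0.853 to 5.05). These are 4 of the 45 well covered distal regions (8.89%), against 36 of the 577 elsewhere (6.24%).

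The lowest values were smaller in size. R09072 on chromosome 16 (chr16:93795593-93796593) held 10 induced and 26 repressed counts, a log2 ratio of −0.86. R09062, 219 kb further in on the same chromosome (chr16:93575145-93577050), held 11 and 21 counts, a log2 ratio of −0.44. R23337 of the chromosome 9 locus had a log2 ratio of −0.63 and R13471 at the tip of chromosome 2 one of −0.48. On chromosome 5, R17693 (chr5:148808705-148810319) held 8 and 16 counts and R17726 (chr5:151024378-151025690) held 7 and 14. R22059 on chromosome 8 held 9 and 16 counts, R18901 on chromosome 6 and R23267 on chromosome 9 each held 8 and 14, and R08252 on chromosome 15 (chr15:100110837-100111837) held 18 and 30. None of the 45 well covered distal regions had an interval wholly below the autosomal ratio, against 13 of the 577 elsewhere (2.25%). R16204 on chromosome 4 (chr4:151704505-151706294), named for its coverage, held 21 and 26 counts, a raw ratio of 0.808 (0.432 to 1.49).

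Over all 1100 distal regions, the shares of lower and higher values were close to those of the autosomes as a whole. On scaled counts with a pseudocount of 1, 501 regions were lower (45.5%) and 507 higher (46.1%) in the induced library, against 45.9% and 43.7% of all autosomal regions. The median log2 ratio was 0 at the distal ends and over all autosomal regions. A 2-fold lower value was seen in 174 distal regions (15.8%), against 15.7% of all autosomal regions. A 2-fold higher value was seen in 181 (16.5%), against 15.7% of all autosomal regions. With a median summed count of 4, most of these folds rest on a handful of counts and lie within counting error one by one.

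Tested one by one across the whole table, 0 of the 1008 distal regions with a count passed an exact binomial test (two-sided, Benjamini-Hochberg adjusted over the table), against 0.0141% of all regions with a count (3 of 21323). The smallest adjusted p among the distal regions was 1.00. At an unadjusted p under 0.05 there were 20 distal regions (1.98%), against 2.22% over the whole table, 17 of them higher and 3 lower in the induced library. Over the whole table, 291 were higher and 183 lower. The cut-off is uneven at low counts, where 4 induced and 0 repressed counts pass it and 0 and 5 do not. The split into higher and lower therefore cannot be read as a direction. The 3 lower ones are named here because they are so few, after their values were seen. R16198 on chromosome 4 (chr4:151564754-151565754) held 1 induced and 12 repressed counts, R04427 on chromosome 11 (chr11:120804970-120805970) held 0 and 9, and R18884 on chromosome 6 (chr6:146290878-146292260) held 0 and 6. The test compares reads of these libraries with the induced share of 42.1% over all scaled regions.

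The table carries no gene names, and no annotation of its build was used, so genes can be given only as the order along each chromosome in RefSeq's GRCm38.p6 table, without positions and without assigning any region to them. By that order the last protein-coding genes of chromosome 1 are Cr2, Cr1l and Cd46, which encode complement receptors and regulators, and its distal 5 Mb held 33 listed regions. The last named genes of chromosome 19 include Csf2ra, a cytokine receptor subunit, and Grk5, a kinase of G protein-coupled receptors, beside 45 listed regions. The order on chromosome 10 ends in the vomeronasal receptor genes Vmn2r84 to Vmn2r87, and its last 5 Mb held 99 regions with 205 induced and 274 repressed counts. The last on chromosome 13 is Tcstv3, of a gene family transcribed, like Zscan4, in the 2-cell embryo, but the 12 listed regions there held 6 induced and 15 repressed counts, a raw ratio of 0.400 (relative ratio 0.551, 0.175 to 1.51), which is too few to show a difference. The order on chromosome 14 ends in Itgbl1 and Fgf14, a growth factor family member, and on chromosome 4 in Noc2l, Samd11 and the vomeronasal receptor gene Vmn2r129.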

How the data were processed

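The deposited table gives, per region, raw counts in each of the 2 MeDIP libraries and an adjusted signal. The authors' adjusted signal equals each count multiplied by a library-wide factor (1.19 induced, 0.863 repressed, to within 0.0491), and it is blank for 14 regions, 1 of them distal. The genome build is mm9 per the submitters' processing notes. The sources used here give no aligner, counting tool, duplicate handling or choice of regions. Positions are printed as listed, so a start may be off by 1. Of the distal regions, 23 overlap the one before, where reads may be counted in both.

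Scaled counts used those factors also for blank regions. Relative ratios are conditional odds ratios with exact 95% intervals and Fisher's exact test, and ratios within a group carry Clopper-Pearson intervals. With 1 library per group (0 residual degrees of freedom) edgeR could not be fitted, and edgeR and DESeq2 gave scaling factors only. The binomial test was adjusted over all 21323 regions with a count. Named regions are the distal ones with a blank adjusted value, the 10 with the highest summed count, and the 10 highest and 10 lowest log2 ratios at 20 or more counts. The members, lists and tests were chosen with earlier results of these data known. The tests were tried on simulated data. Sequences of the regions were not used here, since no mm9 genome was at hand. Python 3.11.15, numpy 2.4.6, pandas 2.3.3, scipy 1.17.1, statsmodels 0.14.6, matplotlib 3.10.9, R 4.3.3, edgeR 4.0.16 and DESeq2 1.42.0 were used.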

Additional observations from a re-analysis of the deposited data

How the results depend on the processing

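The ratio of the distal 5 Mb relative to the other autosomal regions lay between 0.996 and 1.08 over 34 alternatives (filters, distances, capping, stratifying by chromosome or by summed count, each chromosome left out), above 1 in 33 of them. Most of these share nearly all reads with the main comparison, 19 of them leaving out 1 chromosome each, so the tally adds no support for a direction. The ratio passed the threshold in 2, at 3 Mb (1.08) and at 3 Mb without regions of 50 or more counts (1.08). At 3 Mb, 19 runs left out 1 chromosome each and 17 of them passed. Of these runs the tally holds only that without chromosome 19, so the number that passed depends on which runs were entered. Leaving out each chromosome at 5 Mb gave 1.02 to 1.05. The 3 Mb combinations, the stratifying by count, the version without the last 100 kb and the first 1 Mb step without each high-count locus (0.728 to 0.804 against 0.769) were chosen after seeing the data. The scaled ratio of 1.04 was 0.940 under TMM, 0.860 under the median of ratios and 0.752 without scaling, since the scaling sets its level. Regions lower and higher by 2-fold numbered 299 and 245 with a pseudocount of 0.1, 0 and 1 with 10, and 336 and 165 without scaling. They numbered 336 and 274 at 1.5-fold, 22 and 20 at 4-fold, and 73 and 53 among the 463 regions with at least 5 counts. Under each of these settings the distal share was within 1.70 percentage points of that of all autosomal regions. The binomial test called 0 distal regions under every scaling, with 18 to 26 at an unadjusted p under 0.05. No paired analysis was possible because each condition has 1 library.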

Other observations

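The distal end of chromosome X, which is no autosome, was covered almost wholly by 6 regions without an adjusted value. They lie within 20.4 kb of its outermost listed end and held 1215 induced and 1611 repressed counts, a raw ratio of 0.754 (exact binomial interval 0.700 to 0.813). The 13 other regions of its last 5 Mb held 6 and 14 counts. Dense signal within 30 kb of the outermost listed end was thus seen on chromosome X as on autosomes 1, 2, 9 and 19. On chromosome 19 the dense region was R11707, 26.8 kb in, and the outermost region, R11708, held 22 counts.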
